A study of Homo sapiens with 4 samples.

Results

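Molecular chaperones of the heat shock and J protein families were followed in MDA-MB-231 and its brain metastatic derivative MDA-MB-231Br. MDA-MB-231 is an established human breast cancer line without oestrogen receptor, and the derivative is labelled as a breast cancer brain metastasis line. The genes were taken by symbol from the deposited RNA-seq table: all DNAJA, DNAJB and DNAJC genes, HSPA, HSPB and HSP90A genes, HSPD1, HSPE1, HSPH1 and BAG1 to BAG6, without the 4 endoplasmic reticulum genes HSPA5, DNAJB9, DNAJB11 and DNAJC3. This gave 65 of 15279 named rows, of which 60 are genes and 5 are HSP90 pseudogenes. All 65 passed the filter on low counts. Both lines grew in DMEM with 10% FBS and no treatment is labelled. Each line has 2 libraries, called A and B in column order. The labels do not say whether they came from separate cultures or how the derivative was selected, so p-values reflect the spread among these libraries alone, and that spread may be technical. The members are mostly but not all cytosolic. By textbook knowledge 8 of them, such as HSPD1 and HSPA9, work in mitochondria and 9, such as DNAJC10 and HSPA13, in or at the endoplasmic reticulum.

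Chaperones bind unfolded stretches of other proteins and keep them from clumping until they fold or are degraded. HSP70 proteins do so in cycles of ATP hydrolysis: a J protein (the DNAJ families) brings the client and triggers hydrolysis, and a nucleotide exchange factor, such as a BAG or HSP110 protein, releases it again. HSP90 takes over partly folded clients, many of them kinases and steroid receptors on which tumour cells depend, the small heat shock proteins hold clients without ATP, and HSPD1 with its lid HSPE1 forms the folding chamber of mitochondria. Under proteotoxic stress the transcription factor HSF1 binds heat shock elements, repeats of GAA and its reverse complement TTC, and induces many of these genes together.

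The libraries held 25835225 to 30771290 reads assigned to named genes. Chaperone rows made up 1.55% and 1.29% of reads in the parental libraries (A, then B) and 1.40% and 1.43% in the brain metastatic ones. Their summed share thus overlapped between the lines. Of the 16 genes listed as markers of this line or of hormone-responsive breast cells, 13 were tested. VIM, the mesenchymal filament, was at 42476 and 38423 against 118095 and 119552 (parental A and B against brain metastatic A and B), and ESR1, the oestrogen receptor, had 0, 2, 7 and 25 reads in the same order. Of 25 markers of immune, endothelial, glial, neuronal, stromal and melanocytic cells, 6 could be measured here, and their summed normalized counts were 2731 and 3133 against 4118 and 4509. The endothelial marker CDH5 had 1, 4, 5 and 0 reads. Of the 5 tested, MBP, PECAM1, PMEL and SYT1 lay above both parental libraries without passing (log2 fold changes 0.67 to 1.31) and CSF1R was lower (-2.76), and their part in the results was not tested. Over 32 interferon-stimulated genes, brain metastatic library B lay above the parental mean by a median of 2.04 on the log2 scale and library A by 0.04, and the part of this difference in the results below was not tested.

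Brain metastatic cells had lower levels of a few chaperone genes, while none of the abundant chaperones passed the test. HSPB8, a small heat shock protein, was 26.9 times lower. The log2 fold change was -2.14 for HSPA12A, a divergent HSP70, -2.09 for DNAJA4, -1.22 for DNAJC30, -1.07 for BAG2 and -0.93 for DNAJC21. These 6 of 65 members were lower at an adjusted p below 0.05 (limma-trend on log2 of the normalized count + 1, adjusted over 14424 genes), which is 9.23% of the members against 5.8% of all genes tested. None was higher, against 8.61% of all genes. At an unadjusted p below 0.05, limma-trend had 3 of 65 members higher and 10 of 65 lower. Over all 14424 genes it had 2467 higher (17.1%) and 2123 lower (14.7%). At this level the share of lower members was thus near that of all genes, and the share of higher ones was below it. On the recovered reads edgeR, DESeq2 and limma-voom called 0 members higher as well, against 8.96%, 11.3% and 8.36% of all genes. In either direction 9.23% of the members were called, against 14.4% of all genes. The brain metastatic libraries lay on 1 side of both parental ones for 16 of 65 members above and 20 of 65 below. Over all 14424 genes these were 4570 (31.7%) and 4277 (29.7%), or 61.3% on either side. Of the 59 members without a call, log2 fold changes ran from -1.15 for HSPE1 to 0.70 for BAG3. The median log2 fold change was -0.06 over the members and 0.01 over all genes tested. In these bulk libraries, fewer cells with a transcript and less of it per cell cannot be told apart.

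**Figure D1:**
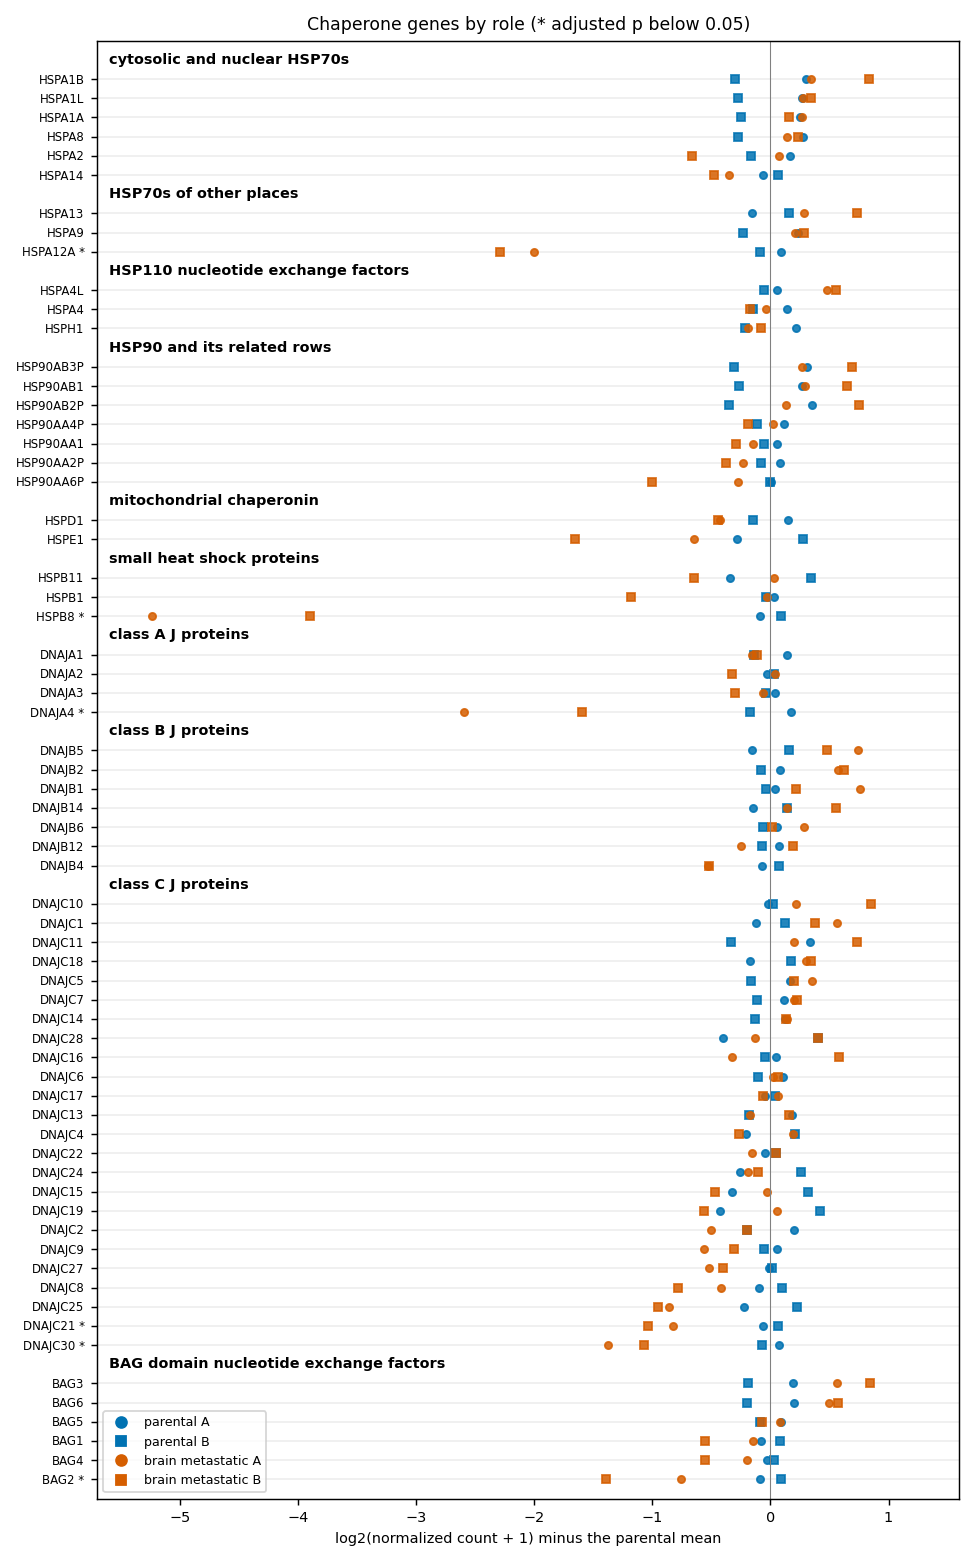
Each row is a chaperone gene, grouped by role, and each point is a library placed at its log2(normalized count + 1) minus the mean of both parental libraries. Parental libraries are blue, brain metastatic libraries orange, circles A and squares B. Genes with an asterisk passed an adjusted p below 0.05. All 6 of them lie to the left, HSPB8 farthest (-5.23 in A, -3.90 in B), whereas most members lie within 1 log2 unit of the parental mean.

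HSPB8 acts with BAG3 in the selective autophagy of damaged proteins. It had normalized counts (reads divided by a size factor per library) of 102 (A) and 115 (B) in parental cells and 1.92 (A) and 6.36 (B) in brain metastatic cells. The brain metastatic libraries held 2 and 6 reads for it, the parental ones 120 and 119, so the lines did not overlap. Summed over libraries and corrected for size factors, reads were 26.9 times lower in brain metastatic cells, with a 95% exact binomial interval of 13.4 to 63.1 that covers counting error only (log2 fold change -4.56 ± 0.57 SE, adjusted p = 0.00268). BAG3, its partner and a stress-inducible exchange factor, measured 2545 (A) and 1960.4 (B) in parental cells and 3310.2 (A) and 4000.2 (B) in brain metastatic cells. Both brain metastatic libraries were above both parental ones, but BAG3 did not pass (log2 fold change 0.70 ± 0.24 SE, adjusted p = 0.0884), except in the fit without brain metastatic library A (0.84, adjusted p = 0.0143, against 0.57 and 0.165 without library B).

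HSPA12A measured 694 (A) and 612 (B) in parental cells and 162 (A) and 132 (B) in brain metastatic cells. All parental values were above all brain metastatic ones, and the mean went from 653 ± 57.7 to 147 ± 21.1 (mean ± SD, n = 2 each). HSPA12A was called lower with a log2 fold change -2.14 ± 0.28 SE, adjusted p = 0.00294. Its exons overlap those of ENO4 on the opposite strand, those of BAG2 overlap RAB23 and ZNF451-AS1, and those of DNAJA4 overlap AC090607.3 and AC090607.4, also on the opposite strand. With no stated strand setting, reads of such genes cannot be told apart. DNAJA4, a class A J protein of the kind that contains the zinc-finger region, was a low-count gene. Its normalized counts were 38.4 (A) and 30.1 (B) in parental cells and 4.8 (A) and 10.6 (B) in brain metastatic cells, from 45, 31, 5 and 10 reads (log2 fold change -2.09 ± 0.57 SE, adjusted p = 0.0449). By reads it was 4.57 times lower, with a counting interval of 2.6 to 8.55.

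DNAJC30 is a mitochondrial J protein that helps to maintain respiratory complex I. It measured 308 (A) and 278 (B) in parental cells and 112 (A) and 139 (B) in brain metastatic cells, with every brain metastatic value below every parental one (log2 fold change -1.22 ± 0.30 SE, adjusted p = 0.0318). BAG2, an exchange factor that also restrains the ubiquitin ligase CHIP, measured 3144 (A) and 3569.7 (B) in parental cells and 1986 (A) and 1279 (B) in brain metastatic cells (log2 fold change -1.07 ± 0.27 SE, adjusted p = 0.0356). The brain metastatic libraries differed by more than the parental ones, with library B lowest. DNAJC21, a J protein of cytosolic 60S ribosomal subunit maturation, measured 3733 (A) and 4064 (B) in parental cells and 2200.0 (A) and 1895 (B) in brain metastatic cells (log2 fold change -0.93 ± 0.22 SE, adjusted p = 0.0294). As for the other 5, the lines did not overlap.

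**Figure D2:**
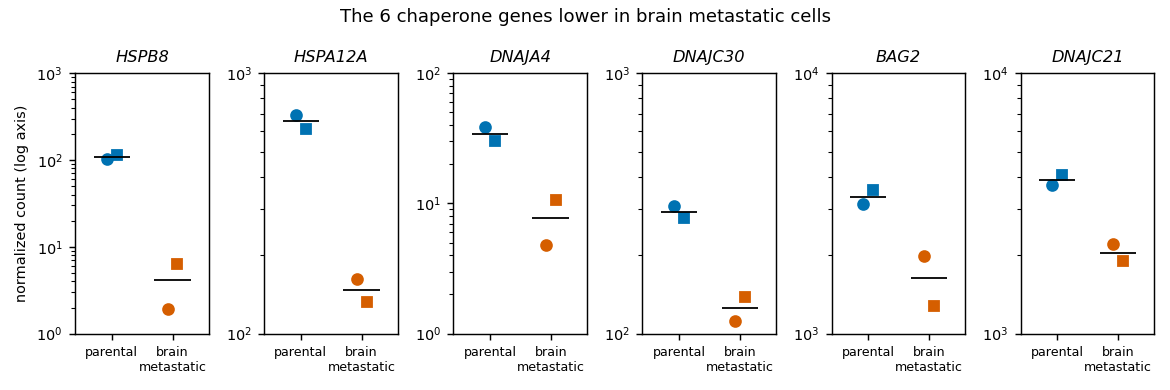
Normalized counts (log axis, with a different range in each panel) of the 6 genes that passed, with circles for library A, squares for library B and bars at the mean of 2 libraries. In every panel both brain metastatic libraries lie below both parental libraries, and the step is widest for HSPB8, from a mean of 109 to 4.14.

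Which members were called depended on the library left out. In each such fit 1 group keeps 1 library, so the spread of a gene comes from the pair of the other line. Without brain metastatic library B, the one with higher interferon-stimulated genes, 1 member was higher (DNAJB1) and 7 were lower, against 11.6% and 10.2% of all genes. Without library A 7 members were higher and 10 lower, against 19.8% and 16.7% of all genes. HSPB8 was called in each of the 4 fits that left out a library, with log2 fold changes of -3.90 and -5.23 when brain metastatic library A or B was the one left out. HSPA12A was not called without parental library A (-2.05, adjusted p = 0.0561). BAG2, DNAJA4, DNAJC21 and DNAJC30 were not called when either parental library was left out (adjusted p 0.142 to 0.289), with log2 fold changes of -1.16 and -0.98 for BAG2, -1.92 and -2.26 for DNAJA4, -0.99 and -0.87 for DNAJC21, and -1.15 and -1.30 for DNAJC30 without A and B. In these fits 1 and 2 members in all were lower, and 0.77% and 0.513% of all genes. When brain metastatic library A or B was left out, BAG2 was at -1.39 and -0.75 and DNAJA4 at -1.59 and -2.59. DESeq2 did not call DNAJA4 (adjusted p = 0.0718).

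Heat shock elements were looked for in the promoters of these genes, since HSF1 acts on several chaperones at once. The search used RefSeq gene starts (GRCh38.p14), of which 75 belong to 54 members, and the 250 bases before each start on either strand. A run of 3 units (GAA, TTC and GAA, or its reverse complement TTC, GAA and TTC, each pair parted by any 2 bases) was found for 5 of 54 members (9.26%), against 0.557% of 27305 genes. The shorter motif of 2 such units, which lies within the longer one and was added after seeing the data, was found for 17 of 54 members (31.5%), against 14% of all genes. The sites with 3 units are printed first, because they belong to abundant chaperones whose levels did not pass, with the motif in capitals and up to 8 bases on either side, 5′ to 3′ on the strand of the gene.
DNAJB6, chr7:157336865-157336893 (+): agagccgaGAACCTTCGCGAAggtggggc
HSP90AA1, chr14:102087112-102087140 (-): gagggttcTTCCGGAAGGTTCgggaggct
HSP90AB1, chr6:44247770-44247798 (+): ggagcaggTTCTGGAAGATTCatgggctc
HSP90AB1, chr6:44247823-44247851 (+): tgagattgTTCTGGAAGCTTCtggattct
HSPA8, chr11:123062346-123062374 (-): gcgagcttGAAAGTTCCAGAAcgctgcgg
HSPA8, chr11:123062171-123062199 (-): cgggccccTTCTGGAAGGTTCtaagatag
HSPD1, chr2:197500062-197500090 (-): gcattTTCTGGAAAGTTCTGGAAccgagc

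In HSPA8 the sites start 230 and 55 bases before the gene start, in HSP90AB1 165 and 112, in HSP90AA1 88 and in DNAJB6 131, while the HSPD1 site, a run of overlapping motifs, starts 245 bases before 1 of its starts. In GENCODE release 29 the HSP90AA1 site and the nearer HSPA8 site lie in an exon of another transcript of the gene itself, the HSPD1 site in an exon of HSPE1, and the others outside exons. Of these 5 genes 0 passed (limma-trend, edgeR and DESeq2, and 0 at an unadjusted p below 0.05), and their log2 fold changes ran from -0.44 in HSPD1 to 0.47 in HSP90AB1. Of the 17 members with the shorter motif, 3 were lower and 0 higher, with log2 fold changes from -4.56 to 0.59 (median -0.13). Of the 37 without it, 3 were lower and 0 higher, from -2.14 to 0.70 (median -0.01). A link between motif and change was not tested. Of the 6 genes that were lower, HSPB8, BAG2 and DNAJA4 held the shorter motif, printed in the same way.
BAG2, chr6:57172194-57172217 (+): accgatagGAACCTTCgcgtgggg
DNAJA4, chr15:78264463-78264486 (+): acctccgcGAAGGTTCtaggcctt
DNAJA4, chr15:78264502-78264525 (+): tccttgcgGAAGCTTCcgccggcg
HSPB8, chr12:119178835-119178858 (+): tcacctccGAATATTCctgtgaca

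The HSPB8 site lies 88 to 81 bases before its start, that of BAG2 124 to 117, and those of DNAJA4 91 to 84 and 52 to 45 before 1 of its starts. In the same annotation the BAG2 site lies in an exon of ZNF451-AS1 on the opposite strand and the HSPB8 site in an exon of another HSPB8 transcript, while both DNAJA4 sites are intronic. A match is a description of the sequence and does not show binding. HSPA12A, DNAJC21 and DNAJC30 held neither motif in these windows.

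The HSP90 genes and the constitutive HSP70 gene HSPA8, each with a 3-unit element in its promoter, were the most abundant members in both lines. Per transcript length (reads per kilobase, scaled to the same total in each library), HSP90AA1, the inducible HSP90, had levels of 2987 (A) and 2434 (B) in parental and 2478 (A) and 2501 (B) in brain metastatic cells. HSPA8, the constitutive HSP70, had 2540.5 (A) and 1539 (B) in parental and 2219.9 (A) and 2628 (B) in brain metastatic cells on the same scale. HSP90AB1, the constitutive HSP90, had 2009.9 (A) and 1228 (B) in parental and 1955 (A) and 2797 (B) in brain metastatic cells. HSPD1 came next in both lines, with 969 (A) and 694 (B) in parental and 620.4 (A) and 681 (B) in brain metastatic cells per length. HSP90AA1, HSPA8 and HSP90AB1 followed in this order within parental libraries A and B and brain metastatic library A, and in the reverse order in brain metastatic library B. The ranges over libraries overlapped between neighbours in the parental order and among all 3 genes in the brain metastatic line. HSP90AA1, HSP90AB1 and HSPA8 together took 52.6%, 49.3%, 51.7% and 52.7% of all chaperone reads in parental A, parental B, brain metastatic A and brain metastatic B.

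**Figure D3:**
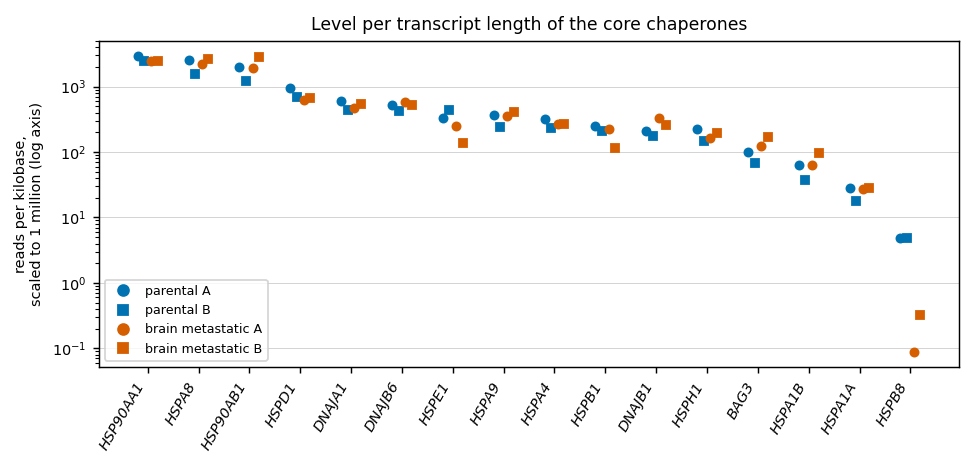
Level per transcript length (reads per kilobase scaled to the same total in each library, log axis) of 16 chaperone genes in each library, ordered by the parental mean. Points of the lines lie near each other for most genes from HSP90AA1 down to HSPA1A, and part most widely at HSPB8, where the parental libraries are at 4.84 and 4.82 and the brain metastatic ones at 0.0869 and 0.32.

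Of the HSP90 rows, 0 of 7 passed (limma-trend, also 0 at an unadjusted p below 0.05, and 0 with edgeR and DESeq2). HSP90AA1 had normalized counts of 99129 (A) and 91526 (B) in parental cells and 86012 (A) and 77987 (B) in brain metastatic cells (log2 fold change -0.22, 95% interval -0.75 to 0.32). HSP90AB1 had 52783 (A) and 36525 (B) in parental cells and 53703 (A) and 69023 (B) in brain metastatic cells (log2 fold change 0.47, interval -0.16 to 1.10, adjusted p = 0.272). HSP90AA1 was lower and HSP90AB1 higher in both brain metastatic libraries than in both parental ones, without passing. Leaving out brain metastatic library A or B put HSP90AB1 at 0.65 (adjusted p = 0.0478) and 0.29 (adjusted p = 0.52). With quantile normalization HSP90AA1 was at -0.69 (adjusted p = 0.132) and HSP90AB1 at 0.19 (adjusted p = 0.71). HSP90AB1 over HSP90AA1, as a ratio of normalized counts that is not corrected for length, was 0.532 and 0.399 in the parental libraries and 0.624 and 0.885 in the brain metastatic ones. HSP90AA2P held 3.51% to 3.77% of the reads of HSP90AA1 in every library, and HSP90AB3P 3.3% to 3.5% of those of HSP90AB1. HSP90AA4P held 0.357% to 0.419% and HSP90AB2P 1.19% to 1.42% of the reads of HSP90AA1 and HSP90AB1, and HSP90AA6P 0.0217% to 0.0382% of those of HSP90AA1. Reads of near-identical copies may be split between such rows, so the pseudogene values are uncertain, including HSP90AA6P, which had 35 and 34.9 against 28.8 and 17 (parental A and B against brain metastatic A and B).

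The 6 cytosolic and nuclear HSP70 genes likewise had no call (limma-trend, 0 also at an unadjusted p below 0.05, and 0 with edgeR and DESeq2). HSPA8 had normalized counts of 61452 (A) and 42167 (B) in parental cells and 56158 (A) and 59744 (B) in brain metastatic cells, and its brain metastatic values fell inside the parental range (log2 fold change 0.19, interval -0.41 to 0.79). HSPA1A and HSPA1B, the classical heat-inducible pair, encode nearly the same protein from near-identical genes, so their split is uncertain. Their summed normalized count was 2275 (A) and 1532 (B) in parental cells and 2327 (A) and 2935 (B) in brain metastatic cells. The brain metastatic sums were both above the parental ones, library A only by a little. Taken alone, HSPA1B had a log2 fold change of 0.59 (adjusted p = 0.207, and 0.83, with adjusted p = 0.0182 when brain metastatic library A was left out, but 0.34 with adjusted p = 0.481 without library B) and HSPA1A of 0.21 (adjusted p = 0.628). HSPA2, best known from the testis, had 101 and 79.5 against 94.1 and 56.2. Neither HSPA9, the mitochondrial HSP70 (log2 fold change 0.25), nor HSPA13, a microsomal HSP70 (0.51), passed. Of the HSP110 exchange factors, 0 of 3 passed. HSPH1 was at -0.13 and HSPA4 at -0.10, while HSPA4L, at 0.52, had an unadjusted p below 0.05 (limma-trend, adjusted p = 0.141). edgeR and DESeq2 called none of the 3.

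Both chaperonin genes of mitochondria had lower values in brain metastatic cells. HSPE1 measured 3131 (A) and 4612 (B) in parental cells and 2423 (A) and 1205 (B) in brain metastatic cells (log2 fold change -1.15 ± 0.36 SE, adjusted p = 0.0667). HSPD1 measured 23374 (A) and 18943 (B) in parental cells and 15642 (A) and 15441 (B) in brain metastatic cells (log2 fold change -0.44 ± 0.23 SE, adjusted p = 0.222). Neither passed, although the lines did not overlap for either, and HSPE1 was called by DESeq2 (adjusted p = 0.0135). HSPE1 and HSPD1 lie head to head and share a promoter region, and exons of HSPE1 overlap those of HSPD1 and of the readthrough HSPE1-MOB4. When brain metastatic library A or B was left out, HSPE1 was at -1.66 and -0.65. HSPB1, the abundant small heat shock protein, measured 2228 (A) and 2125 (B) in parental cells and 2127 (A) and 958 (B) in brain metastatic cells, so only brain metastatic library B stood apart (log2 fold change -0.61, adjusted p = 0.281). It was called lower only with brain metastatic library A left out (-1.18, adjusted p = 0.000459), and it was at -0.03 with library B left out. HSPB11, a component of the intraflagellar transport complex, had 1593 and 2553 against 2063 and 1286.

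Transcript length moved with the differences within a line and, more weakly over all genes, with those between the lines. Over 14374 genes with a length, Spearman's rho between length and the log2 difference of library B from library A was -0.37 in the parental pair and 0.41 in the brain metastatic pair. Over the 60 chaperone genes it was -0.19 and 0.22, and the points share the same 4 libraries. Between length and the log2 fold change of the lines, rho was 0.22 over the 14374 genes and 0.15 over the 60. The part of length in the calls was not tested. HSPE1, HSPB1 and HSPB11, with 950.0, 909 and 915 bases, are the shortest transcripts of the 60. An alternative that corrected each library for length was added after seeing the data. In it HSPE1 was at -0.82 (limma-trend, adjusted p = 0.0493), HSPB1 at -0.26 and HSPB11 at 0.04, while HSPB8 was at -4.55. BAG2 was at -1.25, DNAJC21 at -1.09 and DNAJC25 at -0.91 (limma-trend, adjusted p = 0.0241). With this correction 8 members were lower and 0 higher, against 1374 lower and 1594 higher of 14424 genes.

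Among J proteins, 3 of 35 were lower (DNAJA4, DNAJC21 and DNAJC30), which is 8.57% against 5.8% of all genes tested. Of the 35, 0 were higher, against 8.61% of all genes, and 32 did not pass, with a median log2 fold change of -0.03. The 7 class B genes had a median log2 fold change of 0.35 and 0 calls (limma-trend, 1 higher and 1 lower at an unadjusted p below 0.05, and 0 with edgeR and DESeq2). DNAJB1, the main heat-inducible partner of HSP70, measured 4747 (A) and 4511 (B) in parental cells and 7844 (A) and 5388 (B) in brain metastatic cells. Its brain metastatic values were both above the parental ones, library A more so, without passing (log2 fold change 0.49 ± 0.25 SE, adjusted p = 0.216), and it was called without brain metastatic library B (0.76, adjusted p = 0.0389) and was at 0.22 without library A. DNAJB2, which carries ubiquitin-interacting motifs, had 346 and 309 against 487 and 504 (log2 fold change 0.60), and DNAJB5 had 332 and 413 against 618 and 516 (0.61). DNAJB4 had 1459.8 and 1618 against 1064 and 1071 (-0.53), lower in both brain metastatic libraries. DNAJA1 and DNAJB6 were the most abundant J proteins per length, DNAJA1 with 610.1 (A) and 442 (B) in parental and 475 (A) and 545 (B) in brain metastatic cells and DNAJB6 with 518 (A) and 421 (B) in parental and 579 (A) and 533 (B) in brain metastatic cells. DNAJA1, a general HSP70 partner of the cytosol, had normalized counts of 14267 and 11718 against 11611 and 11969 and its ranges overlapped (log2 fold change -0.13, interval -0.64 to 0.38).

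Class C J proteins share only the J domain and serve many separate tasks, and 2 of 24 were lower (8.33%, against 5.8% of all genes). DNAJC25 lay just outside the threshold. It measured 837 (A) and 1142 (B) in parental cells and 538 (A) and 505 (B) in brain metastatic cells without overlap (log2 fold change -0.91 ± 0.26 SE, adjusted p = 0.0533), and edgeR (adjusted p = 0.0443) and DESeq2 (0.0142) called it. Part of its reads may belong to the DNAJC25-GNG10 readthrough transcript. DNAJC8, a splicing-associated J protein, had 3973 and 4546 against 3182 and 2478 (log2 fold change -0.60, adjusted p = 0.124). DNAJC10, a disulfide reductase of the endoplasmic reticulum, had 9417 and 9679 against 11087 and 17241, and DNAJC16 982 and 919.6 against 759.6 and 1425. In both, brain metastatic library B had the highest of the 4 values. DNAJC10, at 20129 bases the longest transcript of the members, was not called (0.53, adjusted p = 0.203). With brain metastatic library A left out it was called (0.85, adjusted p = 0.00926), and it was at 0.22 without library B and 0.07 with the length correction.

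The 6 BAG genes spread in both directions. BAG2 was lower and the other 5 did not pass. BAG6, which guards newly made membrane proteins, was at 7092 and 5381 against 8689.8 and 9176 (log2 fold change 0.53), above the parental range like BAG3. BAG1 at -0.35 and BAG4 at -0.37 lay below it, and BAG5 at 0.01 overlapped. BAG3 over BAG2, as a ratio of normalized counts, was 0.81 and 0.549 in the parental libraries and 1.67 and 3.13 in the brain metastatic ones.

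By compartment, the 8 mitochondrial members had a median log2 fold change of -0.25 with 1 lower, the 9 of the endoplasmic reticulum a median of 0.32 with none called, and the other 48 a median of -0.09 with 5 lower. Of these 9, limma-trend had 1 at an unadjusted p below 0.05, DNAJC25, the same gene that edgeR and DESeq2 called lower. The groups' medians differed between libraries: mitochondrial members were at -0.05 (A) and -0.46 (B) in brain metastatic cells, and those of the endoplasmic reticulum at 0.14 and 0.38. Lower calls made up 12.5% of the mitochondrial members, 0% of those of the endoplasmic reticulum and 10.4% of the other 48. Over all genes 5.8% were called lower and 8.61% higher. The difference between compartments was not tested.

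The factors and partners of these chaperones were read from lists of related genes. HSF1, the main heat shock factor, had 1521 and 1325 against 1995 and 1481 (parental A and B against brain metastatic A and B, log2 fold change 0.28, interval -0.29 to 0.85), and HSF2 1177 and 1034 against 1206 and 1017 (0.01, interval -0.54 to 0.55). In both genes the ranges overlapped. Of 14 tested heat shock factors and regulators, 1 was higher (FBXW7, the ubiquitin ligase subunit that can target HSF1, 1.34) and 2 lower: HSBP1, a binding protein of HSF1, which had 5297 and 8444 against 3738 and 2324 (log2 fold change -1.18 ± 0.32 SE, adjusted p = 0.0435), and IER5L (-2.67). Of 29 heat shock factor targets outside the members, 2 were higher (TNFRSF11B at 1.67 and the secreted chaperone gene CLU at 1.16) and 1 lower (CHKA, -1.16), with a median of -0.17. Co-chaperones of HSP90 and HSP70 had 1 of 36 higher (TTC9, 2.17) and none lower, with a median of -0.19 and 4 higher and 5 lower at an unadjusted p below 0.05. The cytosolic chaperonin TRiC and prefoldin had 1 of 23 lower (UXT, -1.56) and none higher, with 6 lower and 0 higher at an unadjusted p below 0.05 and a median of -0.22 (-0.02 in A, -0.44 in B). Mitochondrial chaperones and proteases, 7 of them members, had 0 of 25 passing (limma-trend, 4 lower at an unadjusted p below 0.05), with a median of -0.25. Over all genes 8.61% were higher and 5.8% lower at the adjusted threshold, and 17.1% and 14.7% at the unadjusted one.

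Chaperones of the endoplasmic reticulum had higher median values in brain metastatic cells, by more in library B. For 19 of 33 both brain metastatic libraries lay above both parental ones, against 31.7% of all genes. At an unadjusted p below 0.05, limma-trend had 7 of 33 higher and 1 lower, against 17.1% and 14.7% of all genes. The list of these chaperones, which shares 6 tested genes with the members, had 1 gene called higher (ERO1B, 1.88) and none lower. Over all genes 8.61% were called higher and 5.8% lower. Its medians in the brain metastatic libraries were 0.18 (A) and 0.99 (B), against 0.02 and -0.08 for the 65 members. HSPA5, the HSP70 of that compartment, had 26735 and 23327 against 28138 and 141567 (parental A and B against brain metastatic A and B), whereas its cytosolic counterpart HSPA8 had 61452 and 42167 against 56158 and 59744. Immediate early genes, which respond to handling as well as to growth signals, had 7 of 18 higher, with FOSB (2.50) and EGR1 (1.98) first, and 1 lower (BTG2, -4.45). Their medians were 0.97 (A) and 0.76 (B). Differences between these lists, and the part of handling in any of them, were not tested.

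**Figure D4:**
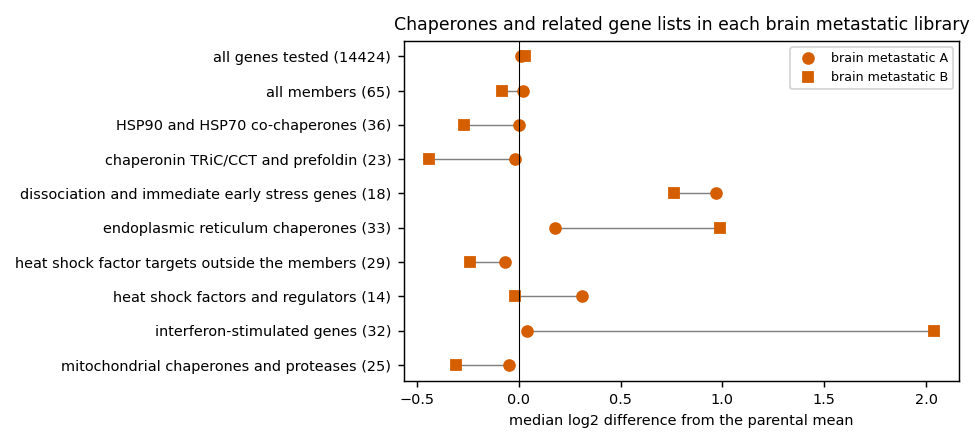
Median log2 difference from the parental mean in brain metastatic library A (circle) and B (square) for the chaperones and related lists, with the number of tested genes in brackets. The chaperones lie at 0.02 and -0.08, beside all genes tested at 0.01 and 0.03, while the lists of the endoplasmic reticulum (0.18 and 0.99) and of interferon-stimulated genes (0.04 and 2.04) are far apart between the libraries.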

How the data were processed

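Bulk RNA-seq of 4 libraries was analysed, 2 of MDA-MB-231 and 2 of its brain metastatic derivative. Per the submitters' processing notes, reads were handled with HISAT2, featureCounts and DESeq2 on GRCh37. Versions, annotation, kit and strand setting were not given in the sources used here. The deposited values are a signal: gene read counts divided by a size factor per library. In all libraries 100% of values were whole reads within 0.01 reads after multiplying back, so reads could be recovered. Columns name the line but no replicate, so letters A and B only follow column order. Rows without a gene name (67 of 15346, at most 0.0369% of reads) were left out, and 20 rows hold names turned into dates.

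The main test was limma-trend (limma 3.58.1, R 4.3.3) on log2(normalized count + 1), for 14424 genes that passed edgeR's filter on recovered reads (minimum count 10, minimum total 15), with Benjamini-Hochberg adjustment over all of them and a threshold of 0.05. A fold change on this scale understates the change of low genes. The 15 alternatives were edgeR 4.0.16 quasi-likelihood, DESeq2 1.42.0 and limma-voom on recovered reads, TMM and library total scaling, quantile normalization, pseudocounts of 0.5 and 5, no filter, a filter of 50 reads and each library in turn left out. A loess correction for transcript length (span 0.5) was the 1 added after seeing the data. On recovered reads edgeR called 2228 genes, against 2079 in the main test.

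Levels per length used GENCODE release 29 transcripts matched by symbol. Promoters came from RefSeq (GRCh38.p14), which is not the build of the files, and were matched by symbol for 54 of 65 members. The members and the 10 gene lists were chosen with earlier results of these data known. Members were named if they passed, if they belong to 13 core chaperones, or if they were among the 5 with the widest gap between brain metastatic libraries or the 5 with the largest change without a call; from each related list up to 2 passing genes per direction, HSF1 and HSF2 were named, and other genes are named as examples chosen after their values were seen. The main test was tried on simulated data with known changes and 2 libraries a line: false calls were more frequent than the threshold implies and most of the smaller changes were missed, so a gene near the threshold is uncertain and a gene that did not pass may still differ.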

Additional observations from a re-analysis of the deposited data

How the results depend on the processing

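Over 15 alternatives, 364 values of named members stayed on the same side of the threshold with the same sign, 19 came to pass it, 10 no longer passed and 10 changed sign. All sign changes were in genes that were not called. Leaving out 1 library at a time, HSPA1A ranged from -0.04 to 0.46 and HSPA8 from -0.09 to 0.46 (both lowest without parental library B), and HSPH1 from -0.35 to 0.08 and DNAJA1 from -0.28 to 0.01 (both highest without parental library A). In the same fits DNAJC16 ranged from -0.32 to 0.58 and HSPA2 from -0.66 to 0.07, with the sign changed without brain metastatic library B, and HSPB11 from -0.65 to 0.03, with the sign changed without library B of either line. With the length correction DNAJC16 was at -0.03 and HSPB11 at 0.04.

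Leaving out 1 library at a time gave 0 to 7 members higher and 1 to 10 lower. The 7 higher members came without brain metastatic library A (BAG3, DNAJC10, DNAJC11, HSP90AB1, HSP90AB2P, HSPA13 and HSPA1B), where 10 were lower. Over all genes 19.8% were higher and 16.7% lower in that fit, against 11.6% and 10.2% without brain metastatic library B (1 member higher, 7 lower) and 0.77% and 0.513% lower without parental libraries A and B (1 and 2 members lower). With a pseudocount of 5, HSPB8 was at -3.68. Of the genes in related lists, 20 were higher and 8 lower in the main test, against 39 and 16 with DESeq2, 2 to 68 and 0 to 28 when leaving out 1 library, and 15 lower with the length correction. In the fits that leave out a library, 1 group has 1 library, assumed to vary like the other group, and the cause of these changes was not tested. No paired analysis was possible because the columns carry no replicate numbers. HSPB8 and DNAJA4 rest on 8 and 15 reads in the brain metastatic line, and 2 libraries a line leave wide intervals for the abundant chaperones.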
